A study of Rattus norvegicus with 18 samples.

Results

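The comparison described here set 6 rat pups with prenatal oxycodone (oxy) exposure against 12 pups without it, out of 18 pups in all, and asked what in the prefrontal cortex (PFC) belonged to the prenatal period. The 6 pups were those titled as in utero exposed (IUO). The other 12 were 6 saline controls (SAL) and 6 pups exposed only after birth (PNO), and each of these groups carried equal weight. All were Sprague Dawley rats at postnatal day 14 (P14), and total RNA of the PFC was sequenced from each. IUO dams received oxy by oral gavage, at first 10 mg/kg/day and by mating 15 mg/kg/day, and dosing went on through gestation and nursing. PNO dams received 15 mg/kg/day from parturition, so their pups met the drug through milk, and SAL dams received saline. IUO pups were therefore also exposed after birth, and no group had prenatal exposure alone. The dam, litter and sex of each pup are not given in the labels. If pups of 1 group shared a dam, litter and exposure cannot be told apart, and the p-values measure the spread between these pups.

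Oxycodone acts mainly on the mu opioid receptor (*Oprm1*), whose G proteins inhibit adenylyl cyclase. Opioids cross the placenta and reach the fetal brain while neurons and microglia, the resident immune cells of the brain, are settling. Oligodendrocytes, the cells that wrap axons in myelin, mature in the rat cortex mostly after birth, and at P14 myelin genes are still climbing toward adult levels.

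Summed expected counts lay between 18381819 and 26084780 per pup, with group medians of 23098790 in IUO, 20810530 in PNO and 23178826 in SAL. Genes of cortical projection neurons were present in every pup. The vesicular glutamate transporter *Slc17a7* lay between 501 and 1070 TPM (a transcript level corrected for gene length), and the cortical transcription factor *Tbr1* between 9.5 and 35.6 TPM. Genes of neighbouring regions varied widely. The striatal gene *Ppp1r1b* ranged from 25.5 to 754 TPM over the 18 pups, and *Ttr*, the leading transcript of the choroid plexus, from 0.33 to 2660 TPM. RNA of 2 Y-linked genes was present in 3 IUO, 4 PNO and 5 SAL pups.

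Of 15703 genes tested with edgeR's quasi-likelihood test, 13 were called between IUO and the mean of SAL and PNO at an adjusted p-value under 0.05, which is 0.0828% of the genes tested. In IUO 8 of them were higher and 5 lower, and 6 differed by at least 1.5-fold. At a nominal (unadjusted) p under 0.05 there were 2015 genes, or 12.8% of those tested, with 837 higher (5.33%) and 1178 lower (7.5%). With a fold of 1.5 as well, 389 genes remained, of which 150 were higher and 239 lower. A stricter description of what was particular to IUO asked for a nominal p under 0.05 against SAL and against PNO with the same sign, and 635 genes met it (4.04%), 272 higher and 363 lower. All 13 called genes were among them. In the pairwise comparisons, which share the IUO pups, edgeR called 10 genes against PNO (0.0637% of those tested) and 0 against SAL. A nominal p under 0.05 was found for 2400 genes against PNO (15.3%), 1081 against SAL (6.88%) and 706 between PNO and SAL (4.5%). Against SAL, DESeq2 called 49 genes and limma-voom 43. In what follows a call is one by edgeR unless another tool is named, and the other tools called more genes in all (288 with DESeq2, 2131 with limma-voom). The count of 13 depended on single pups. Leaving out PNO replicate 4, IUO replicate 4 or IUO replicate 5 left 1 call, leaving out IUO replicate 2, 3 or 6 left 2, and leaving out SAL replicate 6 or PNO replicate 5 gave 22 or 21.

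**Figure D1:**
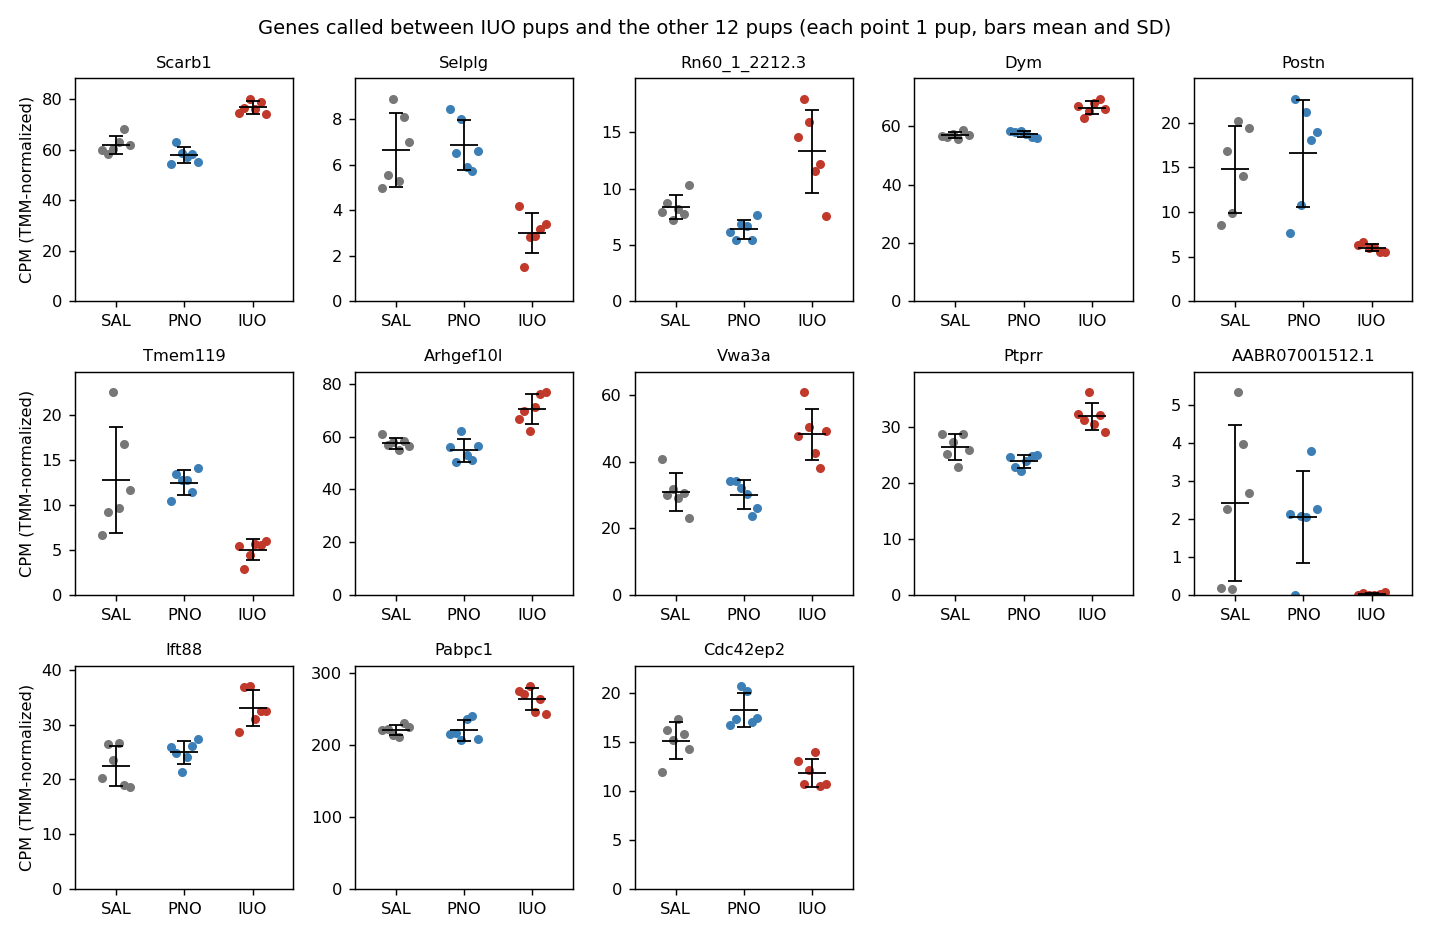
Level of the 13 called genes in each pup, in CPM with TMM normalization, by group. Each point is 1 pup and the bars are the mean and SD of 6 pups. In 8 of the 13 panels the 6 IUO points all lie above or all below the other 12.

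Among the 5 lower genes were 2 of the microglia. *Tmem119*, a membrane protein used to mark resident microglia, had a lowest, median and highest level of 2.9, 5.53 and 6 CPM (counts relative to the TMM-adjusted library total) in the 6 IUO pups, against 6.7, 10.7 and 22.5 in SAL and 10.4, 12.8 and 14.1 in PNO. Every IUO pup lay below every other pup. The log2 fold change (log2FC) between IUO and the mean of SAL and PNO was -1.33 (SE 0.22, edgeR adjusted p = 0.0239). *Selplg*, the P-selectin glycoprotein ligand carried by microglia and other leukocytes, had 1.53, 3.04 and 4.18 CPM in IUO, against 4.97, 6.28 and 8.91 in SAL and 5.75, 6.57 and 8.46 in PNO, again with no overlap. Its log2FC was -1.17 (SE 0.18, adjusted p = 0.0239). Postnatal exposure alone left both close to saline, with PNO minus SAL at -0.03 (SE 0.24) for *Tmem119* and 0.05 (SE 0.20) for *Selplg*. In bulk tissue, fewer cells of a type and less RNA per cell cannot be told apart.

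The other microglial genes differed little. Of 17 microglial genes tested, 2 were called (0.0828% of all genes were), and these were the pair above. The remaining 15 had log2FC values from -0.12 to 0.22, with a median of 0.01 beside -0.003 over all genes, 9 above and 6 below zero, and none had a nominal p under 0.05 (smallest 0.197). Among them, the fractalkine receptor *Cx3cr1* stood at -0.01, the purinergic receptor *P2ry12* at -0.12, the growth factor receptor *Csf1r* at 0.02 and the complement gene *C1qa* at 0.02. Over all 17 the median was 0.007 with 9 higher. It was -0.06 with 4 higher in limma-voom and -0.11 with 4 higher and 3 lower at a nominal p under 0.05 with the striatal score in the model. With each pup left out in turn, exactly 2 genes of the list had a nominal p under 0.05 in every fit. *Selplg* was still called in 13 of those 18 fits and *Tmem119* in 12, with adjusted p-values up to 0.0806 and 0.0895. Calls of *Selplg* were lost without PNO replicate 4 and without IUO replicate 3, 4, 5 or 6, and those of *Tmem119* without the same pups and without IUO replicate 2. Neither gene was called with the myelin, the striatal or the Y-linked score in the model, where adjusted p-values lay between 0.0503 and 0.0729. The differences stayed as large in those fits, at -1.13, -1.23 and -1.17 for *Selplg* and -1.37, -1.35 and -1.35 for *Tmem119*.

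**Figure D2:**
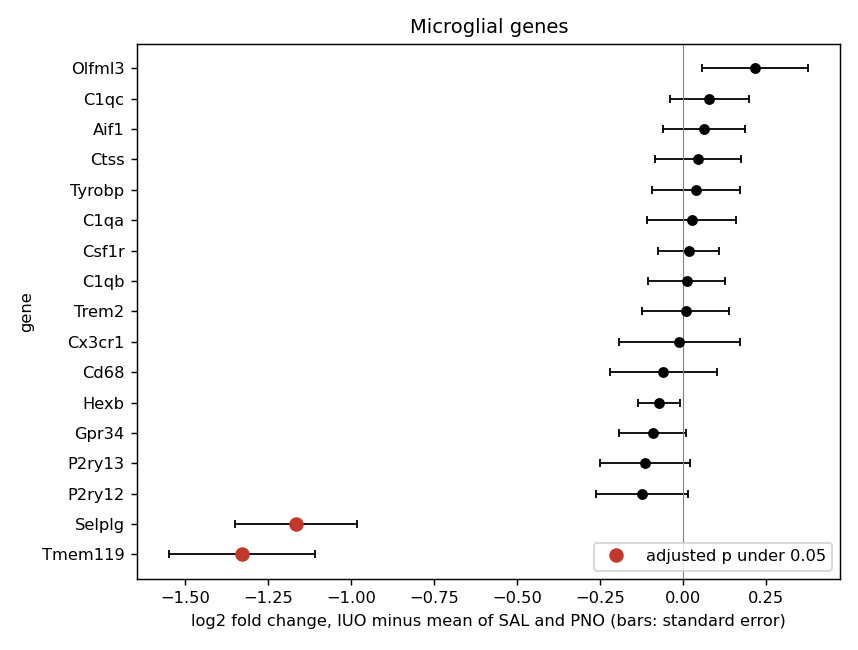
Log2FC of 17 microglial genes between IUO and the mean of SAL and PNO, with SE. *Tmem119* and *Selplg* (red, adjusted p under 0.05) lie below -1, and the other 15 lie between -0.12 and 0.22.

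*Selplg* and *Tmem119* are also neighbours. In the gene order of the RefSeq assembly GRCr8, which was used for order only because the build of the deposited files is not named, no other tested gene that could be placed lies between them. Among 14049 adjacent pairs of tested genes this was the 1 pair in which both were called. The genes on either side were *Coro1c*, with a log2FC of 0.16 (SE 0.05, adjusted p = 0.188), and *Iscu*, at -0.18 (SE 0.12, adjusted p = 0.541), and neither passed the threshold. The library kit does not mark strand, so reads of overlapping genes on opposite strands could not be separated.

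*Postn*, which encodes the matrix protein periostin, had the largest negative fold change among called genes above 1 CPM in every pup. The 6 IUO pups lay closely together at 5.56, 6.01 and 6.64 CPM (lowest, median and highest), against 8.53, 15.4 and 20.2 in SAL and 7.63, 18.5 and 22.7 in PNO. No IUO pup reached the lowest of the others. The log2FC was -1.38 (SE 0.23, adjusted p = 0.0239). The level in SAL and PNO pups went with the striatal markers. In the 4 SAL and PNO pups whose striatal score fell in the range of IUO, *Postn* lay between 7.63 and 10.8 CPM, and in the other 8 between 14 and 22.7. With the striatal score in the model the log2FC was -0.94 (SE 0.18) and *Postn* was no longer called (adjusted p = 0.0626). Nor was it with the Y-linked score, at -1.42 (adjusted p = 0.0529), and it was called in 12 of the 18 fits with a pup left out (adjusted p up to 0.0996).

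Of the 8 called genes that were higher in IUO, 5 separated the IUO pups from all others. *Scarb1*, the receptor for high-density lipoprotein that takes up cholesterol esters, had the smallest p-value of all genes. It stood at 76.7 ± 2.46 CPM in IUO (SD, n = 6 pups), 62 ± 3.56 in SAL and 57.9 ± 3.15 in PNO, and the lowest IUO pup (74) lay above the highest of the others (68.4). Its log2FC was 0.36 (SE 0.04, adjusted p = 0.00345), and it was called in each of 18 fits with a pup left out and in each of 12 other settings. *Dym*, which encodes the Golgi protein dymeclin, had 66.5 ± 2.26 CPM in IUO, 57 ± 1.12 in SAL and 57.4 ± 1.1 in PNO without overlap. This difference of 1.16-fold was called at an adjusted p-value of 0.0239. *Ift88*, a carrier of cargo into cilia, had 33.1 ± 3.33 CPM in IUO, 22.4 ± 3.66 in SAL and 24.9 ± 2.11 in PNO. *Ptprr*, a tyrosine phosphatase of neurons, had 31.9 ± 2.41, 26.5 ± 2.28 and 23.9 ± 1.14 CPM in the same order. *Pabpc1*, which binds poly(A) tails, had 263 ± 15.6, 220.1 ± 7.14 and 219.9 ± 14.3 CPM. These 3 also separated all 6 IUO pups from the other 12, with adjusted p-values of 0.0376, 0.0307 and 0.0386. The calls of these 4 genes were lost more often than that of *Scarb1*. Of the 18 fits with a pup left out and the 12 other settings, *Dym* was called in 12 and 7, *Ift88* in 7 and 6, *Ptprr* in 8 and 6 and *Pabpc1* in 3 and 7. The log2FC values themselves moved little over these fits, from 0.20 to 0.23 for *Dym*, 0.44 to 0.565 for *Ift88*, 0.305 to 0.37 for *Ptprr* and 0.22 to 0.28 for *Pabpc1*.

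The remaining called genes overlapped between groups. *Vwa3a* had 48.2 ± 7.65 CPM in IUO against 30.9 ± 5.73 in SAL and 30 ± 4.36 in PNO, a log2FC of 0.66 (SE 0.11). *Arhgef10l*, a guanine nucleotide exchange factor, had 70.4 ± 5.62 against 57.6 ± 2.08 and 54.9 ± 4.37, a log2FC of 0.32. For both, 5 of 6 IUO pups lay above all others and the adjusted p-value was 0.0239. Rn60_1_2212.3 had a log2FC of 0.86 (adjusted p = 0.0239), from 13.3 ± 3.68 CPM in IUO, 8.36 ± 1.05 in SAL and 6.39 ± 0.856 in PNO. *Cdc42ep2*, an effector of the GTPase Cdc42, was lower in IUO at 11.8 ± 1.47 CPM than in SAL at 15.1 ± 1.89 and PNO at 18.3 ± 1.72 (adjusted p = 0.0413). AABR07001512.1 had expected counts of 0 to 1.8 in the 6 IUO pups and 0 to 118 in the others. In SAL and PNO it was split as well, with 9 pups above 20 and 3 below 5. Its fitted fold change rests on a summed expected count of 4.21 in the IUO pups and is not given (adjusted p = 0.037). Of the 18 fits with a pup left out, *Vwa3a* was called in 12, *Arhgef10l* and Rn60_1_2212.3 in 13, AABR07001512.1 in 7 and *Cdc42ep2* in 4.

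**Figure D3:**
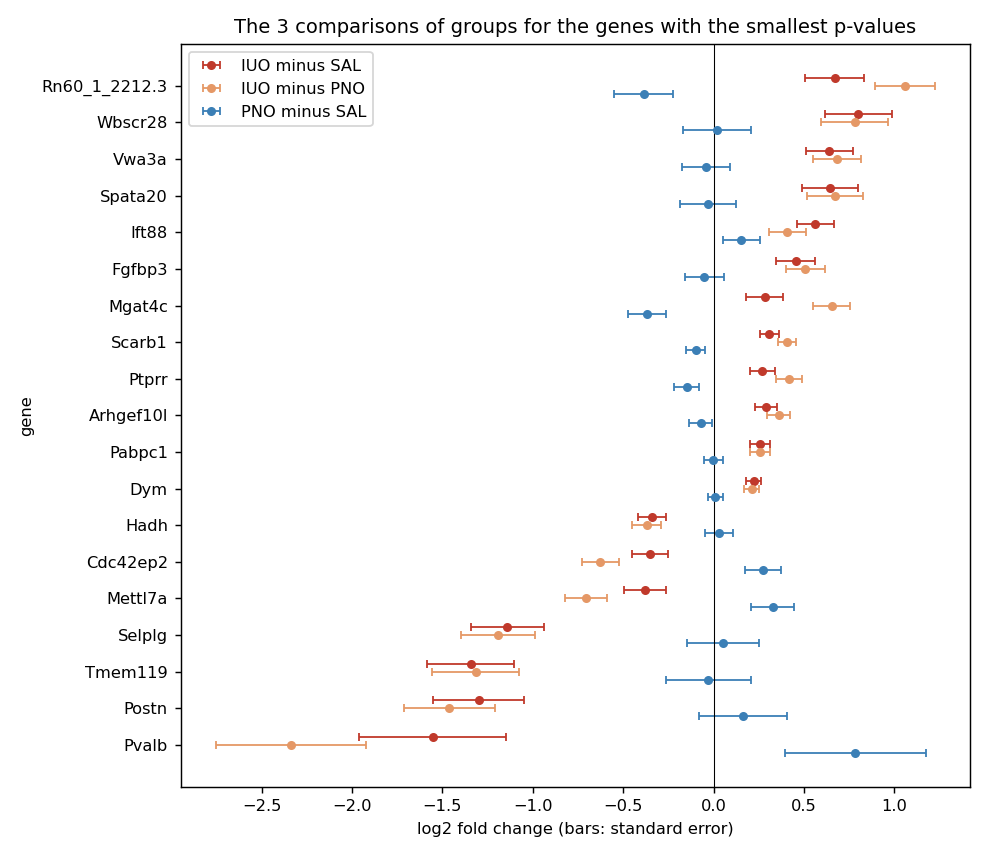
Log2FC values with SE of the genes with the smallest p-values, for IUO minus SAL, IUO minus PNO and PNO minus SAL, with AABR07001512.1 left out for its near-zero counts. IUO points lie on the same side of zero against either group. PNO minus SAL points of *Dym*, *Pabpc1*, *Tmem119* and *Selplg* sit near zero, and those of *Pvalb*, Rn60_1_2212.3 and *Mgat4c* do not.

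Postnatal exposure alone was set beside these differences for the called genes. Of the 13, 3 had a nominal p under 0.05 between PNO and SAL, against 4.5% of all genes, namely *Cdc42ep2* (0.27, SE 0.10), Rn60_1_2212.3 (-0.39, SE 0.17) and *Ptprr* (-0.15, SE 0.07 on the log2 scale). In each, PNO lay on the far side of SAL from IUO. Against PNO alone 7 of the 13 were called and against SAL alone none, with a smallest adjusted p-value of 0.0997.

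The next 7 genes by p-value did not pass and are given as values. *Pvalb*, the calcium buffer of fast-spiking interneurons, had 2.6, 4.71 and 5.93 CPM in IUO (lowest, median and highest), 3.42, 10.8 and 24.6 in SAL and 10.4, 21.5 and 33.5 in PNO. Its log2FC was -1.94 (SE 0.38, adjusted p = 0.0596), with SAL replicate 6 inside the IUO range and SAL replicate 1 just above it. With the myelin score in the model it was -1.16 (SE 0.34, adjusted p = 0.289). *Pvalb* was called with DESeq2, limma-voom, the replicate block (adjusted p = 0.049) and without library size normalization (0.0466), and without SAL replicate 1, SAL replicate 6 or PNO replicate 5 (adjusted p from 0.0219 to 0.0442). *Hadh*, an enzyme of fatty acid oxidation, was at -0.36 and *Mettl7a* at -0.54. *Mgat4c*, *Fgfbp3*, *Spata20* and *Wbscr28* were at 0.47, 0.48, 0.66 and 0.79, and adjusted p-values of these 6 lay between 0.0559 and 0.0637.

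At the level of single pups, 26 genes (0.166% of those tested) had all 6 IUO pups above or all below the other 12, 14 above and 12 below. Of the 26, 8 were called and 19 differed by less than 1.5-fold. Beyond those already named they included *Actb*, the cytoskeletal actin often used as a reference gene, at 1782 CPM in IUO and 1490.0 and 1478 in SAL and PNO (log2FC 0.26, adjusted p = 0.0643). *Akt1*, a kinase of growth factor signalling, stood at 0.20 (adjusted p = 0.081), and *Taf15*, an RNA-binding protein, at -0.37 (adjusted p = 0.0637). *Slc5a5*, the sodium iodide symporter, had 1.81 CPM in IUO, 3.7 in SAL and 3.54 in PNO (adjusted p = 0.0637). These 4 genes were chosen after their values were seen.

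Genes of mature oligodendrocytes and myelin had lower estimates in IUO throughout. Of 16 tested, 16 had a negative log2FC, 15 with a nominal p under 0.05 (7.5% of all genes were lower with such a p), and the median was -0.92 beside -0.003 over all genes. In edgeR none passed after adjustment (smallest adjusted p = 0.125, *Mal*). DESeq2 called 5 of the 16 and limma-voom 15, beside 288 and 2131 of all 15703 genes. With each pup left out in turn, between 13 and 15 genes had a nominal p under 0.05. *Mal*, a proteolipid of compact myelin, had 14.2, 19.4 and 41.2 CPM in IUO (lowest, median and highest), 12.9, 60.2 and 105 in SAL and 24.9, 95 and 234 in PNO. The groups overlapped through SAL replicates 5 and 6 and PNO replicate 5. *Mbp*, myelin basic protein, had 1703 ± 721 CPM in IUO, 2873 ± 1581 in SAL and 4640.0 ± 1936 in PNO, and its log2FC was -1.10 (SE 0.37). *Mobp*, *Ermn* and *Opalin*, all of the myelin sheath or its oligodendrocytes, were at -1.34, -1.39 and -1.29. *Mog*, *Ugt8*, *Cnp* and *Tf* were at -0.98, -0.93, -0.73 and -0.70. *Myrf*, the transcription factor that drives myelin genes, was at -0.24 with a nominal p of 0.219.

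The pairwise comparisons, which share pups, differed in their counts. Against PNO 15 of the 16 genes had a nominal p under 0.05 (15.3% of all genes did), and against SAL 2 did, *Mal* and *Ermn* (6.88% of all genes). All 16 were higher in PNO than in SAL, 4 of them with a nominal p under 0.05 (4.5% of all genes), and the medians were -1.31 for IUO minus PNO, -0.57 for IUO minus SAL and 0.69 for PNO minus SAL. Only those 2 were set apart from both groups by the rule above. The mean log2 CPM of the list was 5.86 ± 0.46 in IUO, 6.4 ± 0.74 in SAL and 7.06 ± 0.77 in PNO (SD, n = 6 each), and 4 of the 12 SAL and PNO pups lay at or below the highest IUO pup. Of 10 genes of oligodendrocyte precursors, 8 were lower with a median of -0.16, and 1 had a nominal p under 0.05, beside 12.8% of all genes. With the myelin score in the model 8 were higher (median 0.07). How much white matter each dissection held was not measured.

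Promoters of these genes are shown because the estimates of the list lay on 1 side of zero and the binding motif of MYRF can be read in some of them. RefSeq promoters (assembly GRCr8) were found for 12 of the 16. In the 250 bases before the start, the letters CTGGCAC on either strand occurred in 4 of the 12 (33.3%) and in 3.8% of all 33469 promoters. The SOX-type motifs ACAAAG and AACAAT occurred in 4 and 2 of the 12, against 16.3% and 10.3% of all promoters, and the motifs were chosen after the values were known. The 4 sequences follow on the strand of the gene with the CTGGCAC match in capitals, which reads GTGCCAG where the match is on the other strand.
*Mal*, chr3:135341424-135341673, minus strand: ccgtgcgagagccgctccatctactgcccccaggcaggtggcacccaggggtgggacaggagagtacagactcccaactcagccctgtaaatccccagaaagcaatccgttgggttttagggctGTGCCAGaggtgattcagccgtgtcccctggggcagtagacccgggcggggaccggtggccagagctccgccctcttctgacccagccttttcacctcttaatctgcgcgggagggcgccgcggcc
*Opalin*, chr1:249858191-249858440, minus strand: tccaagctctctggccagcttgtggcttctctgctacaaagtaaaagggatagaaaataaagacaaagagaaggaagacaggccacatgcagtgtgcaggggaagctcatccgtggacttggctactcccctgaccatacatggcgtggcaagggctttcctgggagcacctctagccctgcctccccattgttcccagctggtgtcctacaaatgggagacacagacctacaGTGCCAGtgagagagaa
*Mag*, chr1:95291045-95291294, minus strand: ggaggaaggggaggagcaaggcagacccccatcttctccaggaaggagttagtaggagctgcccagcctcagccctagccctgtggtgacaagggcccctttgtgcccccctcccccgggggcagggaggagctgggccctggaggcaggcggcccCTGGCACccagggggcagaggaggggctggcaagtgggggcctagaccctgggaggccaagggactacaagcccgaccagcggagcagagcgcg
*Cnp*, chr10:86011254-86011503, plus strand: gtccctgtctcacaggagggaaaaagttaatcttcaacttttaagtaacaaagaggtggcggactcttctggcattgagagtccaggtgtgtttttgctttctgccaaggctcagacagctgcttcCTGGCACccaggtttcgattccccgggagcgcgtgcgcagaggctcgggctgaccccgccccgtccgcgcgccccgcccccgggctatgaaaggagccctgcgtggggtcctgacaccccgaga
The match lay 126, 17, 94 and 124 bases before the start of *Mal*, *Opalin*, *Mag* and *Cnp*. Their log2FC values were -1.77, -1.29, -0.82 and -0.73. A match of letters is a description and says nothing of binding.

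**Figure D4:**
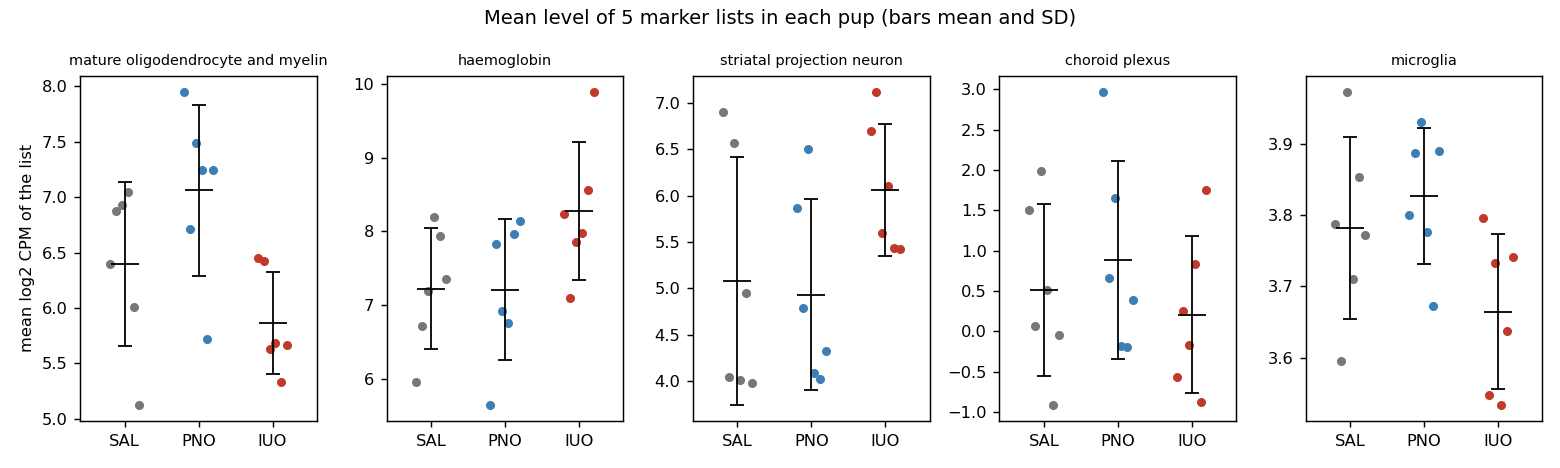
Mean log2 CPM of 5 marker lists in each pup, with the mean and SD of each group. IUO pups lie low for myelin (5.33 to 6.45) and high for striatal genes (5.42 to 7.12), and all 5 lists overlap between groups.

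Erythroid genes had higher estimates in IUO. All 4 tested entries of the haemoglobin list (*Alas2*, *Hbb* and the *Hba-a2* entries under separate identifiers, whose reads may be shared between near-identical copies) had a nominal p under 0.05, where 5.33% of all genes were higher with one, and their log2FC values ran from 0.96 to 1.29 with a median of 1.14. In edgeR none passed after adjustment (smallest adjusted p = 0.164). DESeq2 called 1 of the 4 and limma-voom 2, beside 288 and 2131 of all 15703 genes. *Alas2*, the first enzyme of haem synthesis in red cells, had 8.76, 19.1 and 65.8 CPM in IUO (lowest, median and highest), 4.54, 12.3 and 14.4 in SAL and 4.55, 11.1 and 18.4 in PNO. PNO minus SAL was 0.05 (SE 0.44). IUO replicate 6 was the highest pup, and without it the median was 0.61 and 1 of the 4 entries had a nominal p under 0.05. With the myelin score in the model the median was 0.74 and none had one, and with the striatal score it was 1.68 and all 4 had one. Of the 4 entries 2 were set apart from both groups (4.04% of all genes were), *Alas2* and 1 of the *Hba-a2* entries. So were *Lgals5*, a galectin of rat reticulocytes, and *Hba-a3*, at 1.69 (adjusted p = 0.193) and 1.43 (adjusted p = 0.246). Of the 12 SAL and PNO pups, 7 lay in the range of IUO for the mean of the haemoglobin list. The amount of blood left in the tissue was not measured.

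Markers of neighbouring regions gave estimates that depended on single pups. Of 14 genes of striatal projection neurons, 13 had higher estimates in IUO (median 0.77). A nominal p under 0.05 was reached by 2, *Rarb* at 1.19 and *Gng7* at 0.81, beside 12.8% of all genes. This number ran from 0 to 6 with a pup left out, and the median was 0.45 without IUO replicate 2 and 1.44 with the myelin score. Such a p was reached by 11 of the 14 with the replicate block, 13 with the myelin score and 9 with limma-voom. Of all 15703 genes, 2202, 1473 and 5324 reached it in these fits. The mean of the list lay between 5.42 and 7.12 in the 6 IUO pups, and 4 of the 12 others reached that range (SAL replicates 1 and 3, PNO replicates 1 and 3). Of 10 choroid plexus genes 9 were lower, with a median of -0.82, and none had a nominal p under 0.05. That median was -0.25 without PNO replicate 1, -0.45 without SAL replicate 3, -0.18 with the block and -0.15 with limma-voom, and with the myelin score it turned to 0.22 with 5 of the 10 higher. Among 13 entries for cortical projection neurons, 10 were higher with a median of 0.19 (-0.06 with 6 higher once the myelin score entered the model). *Bcl11b* (0.78, adjusted p = 0.218) and *Foxp2* (0.64, adjusted p = 0.235), transcription factors of deep cortical layers that the striatum also expresses, had a nominal p under 0.01. *Slc17a7* was at -0.08. With the striatal score in the model *Bcl11b* was at 0.35 and *Foxp2* at 0.28, and 1 gene of all those tested was called.

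In edgeR none of the genes of the opioid system was called. Of 8 receptors and peptides tested, 5 were higher, 3 lower and none had a nominal p under 0.05 (median 0.23, smallest adjusted p = 0.482). The median ran from -0.08 with the striatal score in the model and -0.03 without IUO replicate 2 to 0.41 with limma-voom, 0.43 with the block or the choroid plexus score and 0.48 without PNO replicate 1. With limma-voom, the myelin score or the choroid plexus score 3 of the 8 were higher with a nominal p under 0.05. Of all 15703 genes, 2756, 795 and 887 were higher with such a p in these fits. *Oprm1* was near the limit of detection, with 0.626, 0.769 and 1.23 CPM in IUO (lowest, median and highest), 0.318, 0.586 and 2.06 in SAL and 0.294, 0.332 and 2.33 in PNO. The IUO pups fell within the range of the others, with a log2FC of 0.07 (SE 0.46) whose sign changed in several settings. *Oprk1*, the kappa receptor, had 3.78, 4.14 and 8.56 CPM in IUO, 1.22, 2.9 and 7.68 in SAL and 2.05, 2.88 and 7.75 in PNO (log2FC 0.49, SE 0.34, adjusted p = 0.572). It was at 0.049 with the striatal score, 1.02 (SE 0.36) with the myelin score and 0.87 (SE 0.29) with the choroid plexus score. *Oprd1*, the delta receptor, was at 0.40 (SE 0.31, adjusted p = 0.613), and at 0.083 with the striatal score. The enkephalin precursor *Penk* had 133 ± 98 CPM in IUO, 109.7 ± 114 in SAL and 89.7 ± 61.8 in PNO, and the dynorphin precursor *Pdyn* 46.2 ± 17.7, 36.9 ± 27.7 and 33.6 ± 12.1. *Penk* (0.42, adjusted p = 0.791) and *Pdyn* (0.39, adjusted p = 0.629) were below zero once the striatal score entered the model, at -0.55 and -0.13, and larger with the myelin score, at 1.47 (SE 0.495) and 0.75, or the choroid plexus score, at 1.26 and 0.68, in no case with a call. Corrected for gene length, *Penk* averaged 137 TPM and *Pdyn* 26.2 TPM, and *Oprl1*, the nociceptin receptor, was the highest receptor at 17.8 TPM, followed by *Oprk1* at 2.49, *Oprd1* at 1.18 and *Oprm1* at 0.71. Of 21 genes of opioid receptor signalling, 14 were higher and 7 lower with a median of 0.12, and 1 in each direction had a nominal p under 0.05, beside 12.8% of all genes. That median was -0.04 with 7 higher once the myelin score entered the model, and -0.003 with 10 higher without IUO replicate 5. With limma-voom 4 of these 21 and none of the 8 receptors and peptides were called, and with DESeq2 none of either. Of all 15703 genes limma-voom called 2131 and DESeq2 288.

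In edgeR none of the receptors of fast transmission was called. DESeq2 called 1 and limma-voom 6 of the glutamate receptors, and limma-voom called 3 of the GABA-A receptors. Of all 15703 genes DESeq2 called 288 and limma-voom 2131. Of 16 ionotropic glutamate receptor genes, 10 were higher and 6 lower with a median of 0.14, and 2 in each direction had a nominal p under 0.05, beside 12.8% of all genes. The median was -0.09 with 6 higher once the myelin score entered the model and 0.005 with 8 higher without IUO replicate 5. The kainate receptor subunit *Grik5* had 268.9 ± 17.8 CPM in IUO, 225 ± 7.96 in SAL and 228.8 ± 32.1 in PNO, a log2FC of 0.24 (SE 0.07, adjusted p = 0.148). *Grik2*, another kainate subunit, was at 0.38 (SE 0.11, adjusted p = 0.166), with 83.5 ± 13 CPM in IUO, 65.2 ± 12.1 in SAL and 63.2 ± 9.49 in PNO. The AMPA receptor subunit *Gria4* was at -0.29 and the NMDA receptor subunit *Grin2c* at -0.32, both with an adjusted p-value of 0.233. *Gria4* was at -0.18 with the striatal score and *Grin2c* at -0.12 with the myelin score. *Grin1*, the obligatory NMDA receptor subunit, was at -0.02. Of 12 GABA-A receptor genes, 8 were higher and 4 lower with a median of 0.08 (-0.09 with the myelin score). A nominal p under 0.05 was found for 1, lower, beside 12.8% of all genes. Of 18 postsynaptic genes 17 were higher, with a median of 0.12, and 1 had a nominal p under 0.05, beside 12.8% of all genes. Without IUO replicate 5 the median was 0.02 with 12 higher, and with the myelin score it was -0.11 with 2 higher. Of 18 presynaptic genes 3 had a nominal p under 0.05, beside 12.8% of all genes, all lower, among them *Syt2*, the calcium sensor of fast inhibitory terminals, at -1.01 (SE 0.32, adjusted p = 0.206). With the striatal score 1 of the 18, higher, had such a p, and with limma-voom 5 higher and 3 lower genes did. With the myelin score 1 of the 18 was higher, with a median of -0.17.

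**Figure D5:**
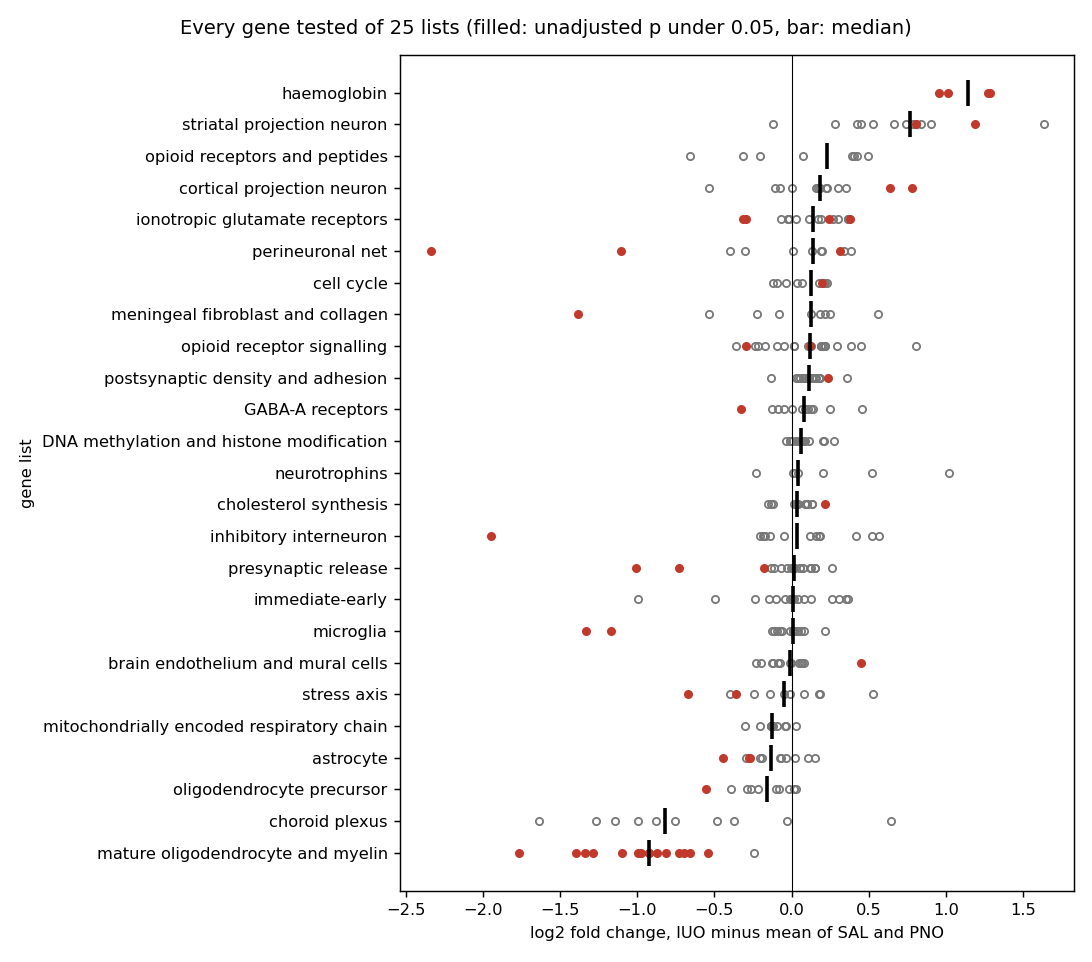
Log2FC between IUO and the mean of SAL and PNO for every tested gene of 25 lists, with the list median as a bar and genes with a nominal p under 0.05 filled. Myelin and choroid plexus medians lie lowest (-0.92 and -0.82, the second -0.25 without PNO replicate 1) and haemoglobin and striatal medians highest (1.14 and 0.77, and 0.61 and 0.45 without IUO replicate 6 or 2).

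Interneuron genes beside *Pvalb* varied in both directions. Of 14 interneuron genes 7 were higher and 7 lower with a median of 0.04, and *Pvalb* was the 1 gene with a nominal p under 0.05, beside 12.8% of all genes. *Sst*, the marker of another interneuron class, was at -0.21, and *Gad1*, which makes GABA, at -0.17, while the highest gene of the list was at 0.57. Among 11 genes of perineuronal nets, the matrix around these cells, 7 were higher and 4 lower with a median of 0.14 (-0.03 without IUO replicate 5). A nominal p under 0.05 was reached by 1 higher and 2 lower genes, beside 12.8% of all genes. The link proteins *Hapln2* (-2.34, SE 0.71, adjusted p = 0.188) and *Hapln4* (-1.11, SE 0.34, adjusted p = 0.198) were lowest. With the myelin score in the model they were at -0.20 and -0.30. DESeq2 called 2 and limma-voom 4 of this list, beside 288 and 2131 of all 15703 genes. *Hapln2*, which belongs to the nodes of myelinated axons, had 0.906, 1.66 and 2.61 CPM in IUO (lowest, median and highest), 0.618, 3.91 and 20.8 in SAL and 1.06, 8.8 and 22.7 in PNO. Its groups overlapped through SAL replicates 5 and 6 and PNO replicate 5, pups that were also low for myelin. *Tnc* was at 0.32 but was not particular to IUO, with 0.04 for IUO minus SAL and -0.56 for PNO minus SAL. *Acan*, the core proteoglycan of the nets, was at -0.40 with a nominal p of 0.0932.

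In the list of the stress axis, 2 of 11 entries had a nominal p under 0.05, both lower and both set apart from SAL and from PNO. Few genes are on the list, and 12.8% of all genes had such a p. *Hsd11b1*, which regenerates active glucocorticoid inside cells, had 17.9, 22.8 and 26.5 CPM in IUO (lowest, median and highest), 18, 30.5 and 42 in SAL and 30 to 59.7 in PNO, a log2FC of -0.67 (SE 0.16, adjusted p = 0.101). *Tsc22d3*, a gene induced by glucocorticoids, was at -0.36 (SE 0.10, adjusted p = 0.138), and at -0.19 with the myelin score. In edgeR with all pups none of the list was called, and *Hsd11b1* was called without SAL replicate 6 (adjusted p = 0.0438). DESeq2 called 2 of the 11 and limma-voom 3, beside 288 and 2131 of all 15703 genes. PNO minus SAL was 0.48 for *Hsd11b1* and 0.19 for *Tsc22d3*. Of 12 astrocyte genes 3 were lower with a nominal p under 0.05 (7.5% of all genes were), among them *S100b* at -0.44 (adjusted p = 0.188, and -0.18 with the myelin score). Of 13 genes of vessels 1 was higher with such a p (5.33% of all genes were), the efflux transporter *Abcg2*. *Abcg2* was not particular to IUO, with 9.03 ± 1.65 CPM in IUO, 8.65 ± 1.95 in PNO and 5.04 ± 1.09 in SAL. Its log2FC was 0.84 (SE 0.18, adjusted p = 0.186) for IUO minus SAL, 0.78 for PNO minus SAL and 0.06 for IUO minus PNO. *Insig1*, a brake on cholesterol synthesis, was at 0.22 (adjusted p = 0.236) in a list whose median was 0.04.

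Lists with little difference included the immediate-early genes (16 tested, median 0.01, none with a nominal p under 0.05, but -0.19 and 4 lower with one without IUO replicate 1, and -0.17 with the myelin score), neurotrophins and their receptors (7 tested, median 0.04) and enzymes of DNA methylation and histone modification (16 tested, 13 higher, median 0.06, none with a nominal p under 0.05). Of 12 genes of the mitochondrial genome 11 were lower, with a median of -0.13 and none with a nominal p under 0.05, but with the myelin score 11 of the 12 were higher (median 0.145). With that score 6 of the 16 methylation and histone genes were higher (median -0.09). Of 10 cell cycle genes 7 were higher with a median of 0.12, and 4 with a median of -0.03 with the striatal score. That median was 0.02 without IUO replicate 1 and 0.20 without IUO replicate 3. In the latter fit 4 of the 10 were higher with a nominal p under 0.05, as were 671 of all 15792 genes. In the list of meningeal and collagen genes the median was 0.12 (-0.35 with the myelin score, and below zero without IUO replicate 3 or 5), and *Postn* was the 1 gene with a nominal p under 0.05.

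Among genes set apart from both groups with a mean of at least 1 CPM, several of the largest fold changes rested on part of the pups. AABR07001512.1, described above, had the largest in absolute size and was above 20 counts in 9 of the 12 SAL and PNO pups. *Fam111a* had a log2FC of 2.22 (adjusted p = 0.0765), from 40.4 and 29.9 CPM in IUO replicates 1 and 2, while the other 4 IUO pups lay between 2.35 and 4.59 and the SAL and PNO pups between 1.9 and 4.07. LOC100363537 was at 1.31 (adjusted p = 0.087), with 3 IUO pups above all others. At the low end the spread lay in SAL and PNO. *Slc6a4*, the serotonin transporter, had 182, 133 and 74.2 CPM in SAL replicate 4, PNO replicate 6 and PNO replicate 4, and at most 7.9 in each of the other 15 pups. *Asb15* was above 20 CPM in 4 pups, replicates 4 and 5 of SAL and of PNO, and at most 0.644 in the rest. *Gata3*, a factor of serotonin and other brainstem neurons, and AABR07005779.2 were likewise high in some SAL and PNO pups only. Their log2FC values, from -4.87 to -3.34, had adjusted p-values of 0.206 to 0.274, and 4 to 8 of the 12 SAL and PNO pups fell within the IUO range. With the striatal score in the model the log2FC was -0.065 for *Slc6a4*, -0.485 for *Gata3*, -1.06 for AABR07005779.2 and -1.996 for *Asb15*, and with the myelin score that of *Slc6a4* was -0.76. *Fam111a* was at 1.35 with the striatal score and 1.36 with the Y-linked score.

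IUO pups also stood apart on 1 of the first 4 principal components of log2 CPM. On the fourth, which held 6.5% of the variance, the mean score was -12.29 ± 9.93 in IUO and 6.15 ± 13.26 in the other 12 (two-sided exact permutation test, p = 0.00679, adjusted p = 0.0271 over the 4 components). All 6 IUO pups and 4 of the other 12 had a negative score. On components 1, 2 and 3, with 26.8%, 12.6% and 12.4% of the variance, the adjusted p-values of the same test were 0.328, 0.146 and 0.616. Computed on the 1000 most variable genes, the fourth component had an adjusted p-value of 0.212. Within groups, the median SD of log2 CPM over genes was 0.19 in IUO, 0.26 in SAL and 0.265 in PNO, a description with no test.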

How the data were processed

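For each of 18 pups the authors deposited an expected count per gene, an estimate that shares out reads matching several genes, with no normalization. TPM, also deposited, corrects for gene length and total, and was used only to compare levels between genes. The aligner, counting program, annotation and genome build are not given in the sources used here. After rounding, a single model of the 3 groups was fitted by the quasi-likelihood method of edgeR 4.0.16 (R 4.3.3), with TMM scaling and the filterByExpr filter, and the two-sided contrast was IUO minus the mean of SAL and PNO. Of 32623 genes listed, 15703 were tested, and Benjamini-Hochberg adjustment covered all of them. Calls required an adjusted p below 0.05. Log2 CPM used a prior count of 2. Standard errors were derived from the F statistic. Totals per pup were 18381819 to 26084780, and among 45 pairs of pups within a group 0 were identical, so each pup counted as 1 replicate. Lists were described by counts and medians, with no set test. Principal components were compared by a two-sided exact permutation test. Members and lists were chosen with earlier results of these data known. Genes were named if called or among the 20 smallest p-values, if on a list with an unadjusted p-value under 0.01, if among the 5 largest differences in each direction of genes set apart from both groups with a mean of at least 1 CPM, or if *Oprm1*, *Oprk1*, *Oprd1*, *Penk* or *Pdyn*. A gene that met this rule is not reported here. Other genes named are list members given for context. Alternatives were other scaling, DESeq2 1.42.0, limma-voom (limma 3.58.1), other filters, SAL and PNO as 1 group, a replicate block, marker scores as covariates and each pup left out. The fit was tested on simulated data. Tables and plots were made with Python 3.11.15, pandas 2.3.3, scipy 1.17.1 and matplotlib 3.10.9.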

Additional observations from a re-analysis of the deposited data

Results flagged for a closer look

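In 9 of the 177 groups of 6 pups looked at for the named genes, 1 pup stood farther from its group than Dixon's 95% limit of 0.625 allows, and chance gives about 1 group in 20. The values are log2 CPM. Within IUO, replicate 2 was high for *Oprk1* (3.11, nearest 2.23), *Oprm1* (0.4, nearest -0.15) and *Mettl7a* (3.84, nearest 3.57), and replicate 1 was high for *Hadh* (4.94, nearest 4.7) and *Grin2c* (6.35, nearest 6.07). The values for *Hadh*, *Grin2c* and *Mettl7a* lie on the side of the SAL and PNO pups. Within PNO, replicate 1 was high for *Oprk1* (2.97, nearest 1.72) and low for LOC100363537 (0.8, nearest 1.69), and replicate 2 was low for AABR07001512.1 (-3.47, nearest 1.1), which places that pup with the IUO pups. Within SAL, replicate 1 was high for *Grik2* (6.47, nearest 6.04), on the side of IUO.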

How the results depend on the processing

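The count of called genes depended strongly on the test. Beside 13 in edgeR with TMM, it was 288 with DESeq2, 2131 with limma-voom and sample quality weights, 23 without library size normalization, 7 without a filter on low counts, 5 with the myelin score as a covariate and 1 with the striatal or the Y-linked score, and 6 if a fold of 1.5 was also asked. In the fits with a score the log2FC of none of the 13 moved by over 1.5 times. With the replicate number as a block it was 22, which held 7 of the 13 (not *Dym*, *Arhgef10l*, *Ift88*, *Pabpc1*, Rn60_1_2212.3 and AABR07001512.1). Same-numbered pups were not taken as paired in the main fit. Their deviations correlated above 0.1 in 1 of 6 pairs of SAL and IUO (mean -0.03) and 3 of 6 of PNO and IUO (mean 0.06). For SAL and PNO 4 of 6 pairs did (mean 0.23). In 11 of 36 comparisons a pup was closest to its own number, where random matching among 6 pups gives about 1 in 6. *Asb15* was high in replicates 4 and 5 of both SAL and PNO, and striatal genes in replicates 1 and 3 of both. Why same-numbered SAL and PNO pups were alike was not tested. Leaving out 1 pup gave 1 to 22 calls. The 389 genes at an unadjusted p-value under 0.05 and 1.5-fold became 904 with limma-voom and 956 without the filter (335 to 505 with a pup left out), and the 635 genes set apart became 1914 with limma-voom (447 to 963 with a pup left out, the highest without SAL replicate 6). The share of higher genes among the 389 was 38.6%, against 61.1% with limma-voom, 60% with the myelin score, 52.3% with the block, 49.7% without the filter and 48.8% with the choroid plexus score. The fourth principal component lost its call on the 1000 most variable genes (adjusted p = 0.212). The cause of these shifts was not tested. *Ugt8* (0.025) and *Mbp* (0.051) changed sign with the myelin score as a covariate, *Penk* (-0.55) and *Pdyn* (-0.13) with the striatal score, and *Oprm1* with the myelin score (-0.052) and in 7 of 18 fits with a pup left out, which ranged from -0.085 to 0.484. Of 1767 values of the 59 named genes under the alternatives, 12 changed sign, 151 lost and 79 gained a call. Every list median moved by less than the spread between pups under the other scalings and the block. The list counts with a pup left out were chosen after seeing the data. With the myelin score as a covariate 15 of 25 list medians changed sign and 22 of the 59 named genes moved by over 1.5 times, and with the striatal score 5 medians and 15 genes did. The SE of *Oprm1*, with a median under 1 CPM in each group, was 0.46, so small differences in it were not detectable.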
